A study of Mus musculus with 45 samples.

Results

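Left ventricular tissue of 6-week-old wild-type mice with a lasting constriction of the aorta (labelled nAAC) was compared with that of 6-week-old wild-type mice after a sham operation. Both operations were done within a day of birth, and the pups stayed with their mothers. Each group held 5 libraries, 10 of the 45 in the series, chosen by the labelled operation and age. The other 35 came from nAAC and sham hearts at 4 and 8 weeks and from hearts with a reversible constriction at all 3 ages. Total RNA was sequenced and the authors counted reads per gene, and the comparison covered the 15444 genes of 27007 in the table that had enough reads to test. The labels give neither the tightness of the constriction nor the litter, the sex or the hour of sampling. They do not say that each library is a separate animal either. So p-values measure the spread between libraries of a group, which was estimated from all 45 libraries in 9 groups. One library of the 4-week comparison, nAAC replicate 1, is named nAAC in its title and sham in its treatment tag, and was grouped by its title. Its Nppa level was 5904 CPM, against 7346 to 16453 CPM in the other nAAC libraries and 64.6 to 130 CPM in the sham libraries at that age. Without it, each of 30 genes described at 4 weeks kept the sign of its 4-week effect and of its difference between 6 and 4 weeks, and 28 kept their side of the threshold for that difference. The exceptions are given with the genes.

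The nAAC libraries held 31.6 to 36 M counts (M, mega) and the sham libraries 32.3 to 34.1 M. Levels are given as CPM (counts scaled to a common library size, with TMM normalization), and a log2 fold change is nAAC over sham with its standard error. CPM are not divided by gene length, so they compare a gene between libraries and not one gene with another. As a check of the tissue label, the ventricular marker Myl2 averaged 6471 CPM in nAAC and 8312 CPM in sham and the atrial marker Myl7 25 CPM in nAAC and 17.0 CPM in sham. These genes span 1950 and 590 exonic bases, so the check is a rough one. For Sln, another atrial marker, 1 library in each group stood far above the rest. In a principal component analysis of the 10 libraries the first component held 66.7% of the variance and separated the groups, with nAAC at 46.7 to 66.4 and sham at -57.4 to -52.4. The second held 7.07% and set nAAC replicates 3 and 4 apart from nAAC replicates 1, 2 and 5. Xist and 4 Y-linked genes marked nAAC replicates 1, 3, 4 and 5 as female, nAAC replicate 2 as male and all 5 sham libraries as male, so sex differs between the groups. All sham libraries at 4 and 8 weeks were male too, so a sex covariate is estimated from hearts with a constriction alone. In nAAC 3, 4 and 2 of 5 libraries were female at 4, 6 and 8 weeks. Reads of the mitochondrial genome made up 23 ± 3.27% of counts in nAAC and 30.3 ± 1.77% in sham (SD, n = 5 each). By edgeR's quasi-likelihood test with Benjamini-Hochberg adjustment at 0.05, 7453 genes differed, or 48.3% of those tested. Of the genes tested 24.5% were higher in nAAC (3779) and 23.8% lower (3674). With sex as a covariate 6976 genes differed, and between the single male nAAC library and the 5 sham libraries 4500 did. The 5 nAAC libraries all lay above the 5 sham libraries for 18.3% of genes and all below them for 18.9%. Since about 1 gene in 2 changed, the counts of each gene group below are to be read against these shares, and against a median log2 fold change of 0.02 over all genes tested.

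A narrowed aorta makes the left ventricle eject against a raised pressure. Its cardiomyocytes are known to enlarge and to return to a fetal pattern of sarcomere and natriuretic peptide genes, its fibroblasts lay down collagen, and its fuel use shifts away from fatty acids. In newborn mice cardiomyocytes still divide for a short time after birth and then leave the cell cycle. In bulk tissue fewer cells of a type and less RNA per cell cannot be told apart.

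The natriuretic peptide genes Nppa and Nppb separated the groups without overlap. Nppa, which encodes atrial natriuretic peptide, stood at 9601, 13848, 9199, 11786 and 14197 CPM in the nAAC libraries, against 151, 169, 96.0, 95.4 and 175 CPM in the sham libraries. Every nAAC library exceeded every sham library (log2 fold change 6.42 ± 0.55, adjusted p = 1.4e-11). An antisense gene covers 61.5% of its exonic bases, and the strand setting of the counts is not given in the sources used here, so reads of that gene cannot be separated from its own. Nppb, which encodes B-type natriuretic peptide, stood at 964, 1233, 721, 985 and 1361 CPM in the nAAC libraries, against 93.2, 155, 111, 179 and 165 CPM in the sham libraries (log2 fold change 2.91 ± 0.40, adjusted p = 2.0e-07), again with no overlap. Of the 13 tested genes of the peptides, their receptors and their processing enzymes, 6 rose and 3 fell. The clearance receptor Npr3 rose (0.91 ± 0.22 on the log2 scale), as did Pde9a, a phosphodiesterase that degrades cyclic GMP (1.09 ± 0.21). Corin, the protease that activates the atrial peptide, fell (-0.67 ± 0.17), and Mme, which encodes neprilysin, a protease that breaks natriuretic peptides down, averaged 0.758 ± 0.455 CPM in nAAC and 9.87 ± 1.13 CPM in sham (SD, n = 5 each; log2 fold change -3.71 ± 0.42, adjusted p = 3.6e-09).

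**Figure D1:**
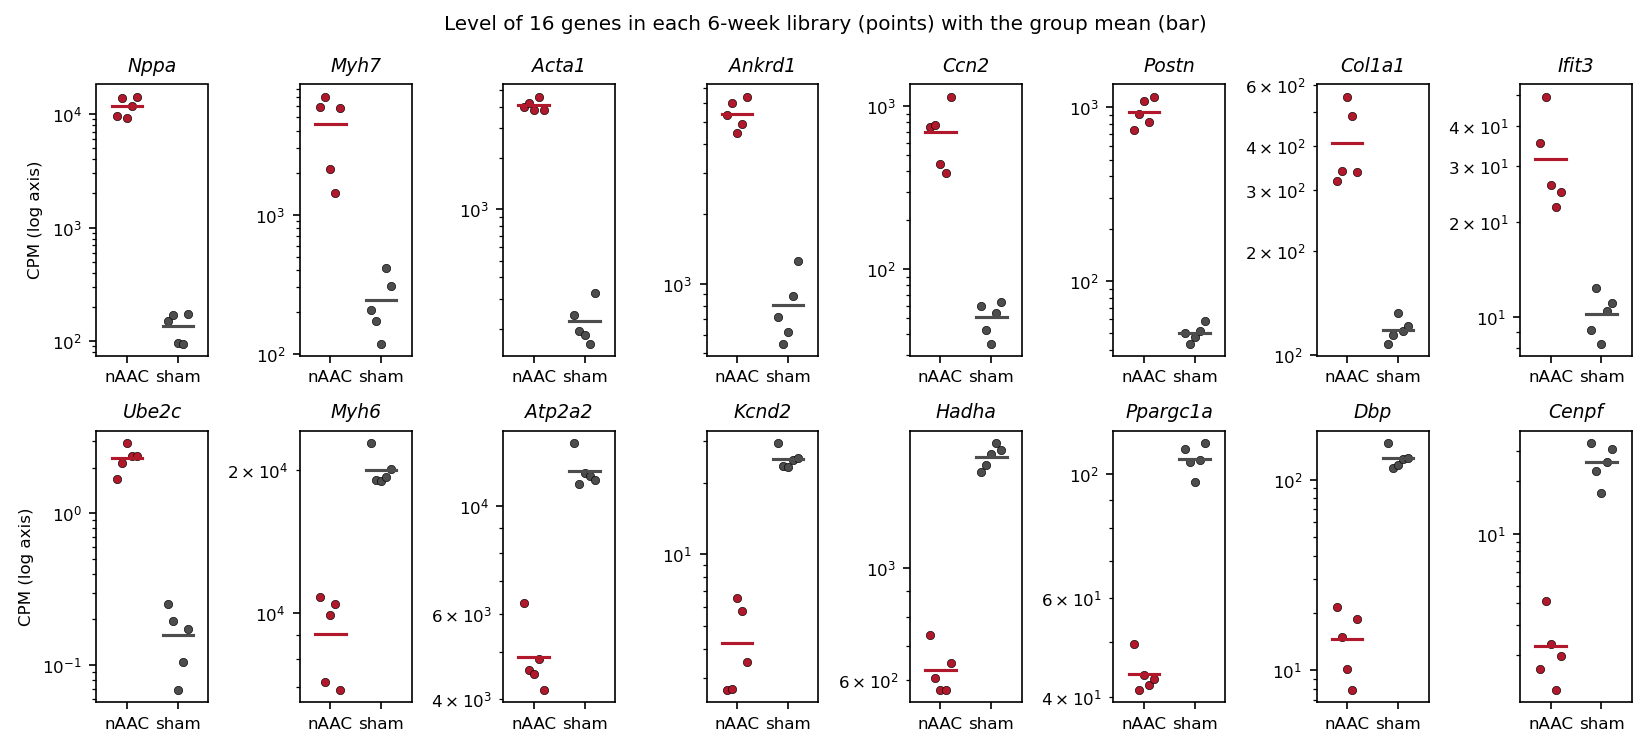
Level of named genes in each library of nAAC hearts and sham hearts at 6 weeks, in CPM on a log axis, with 1 point per library and the group mean as a bar. Nppa lies between 9199 and 14197 CPM in nAAC and between 95.4 and 175 CPM in sham.

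The myosin heavy chain pair moved in opposite directions. Myh7, the slow beta chain that the fetal mouse ventricle uses, stood at 5916, 7039.6, 2125, 1423 and 5828 CPM in the nAAC libraries, against 207, 171, 118, 411 and 305 CPM in the sham libraries. All nAAC libraries lay above all sham libraries, but nAAC replicates 3 and 4 were well below the other nAAC libraries (log2 fold change 4.20 ± 0.55, adjusted p = 8.9e-08). Myh6, the fast adult alpha chain, stood at 10802, 7187, 9923, 10474 and 6899 CPM in the nAAC libraries, against 22743, 19016, 18976, 19308 and 20057 CPM in the sham libraries, and the groups did not overlap (log2 fold change -1.14 ± 0.17, adjusted p = 8.9e-07). In the thick filament list 3 of 17 genes rose and 4 fell. Mybpc2, the fast skeletal form of myosin-binding protein C, rose (76.7 ± 16.7 CPM in nAAC and 10.2 ± 2.003 CPM in sham), and so did the M-band protein gene Myom3 (1.35 ± 0.19). Myosin light chain kinase 3, Mylk3, fell (-0.68 ± 0.14).

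Among thin filament genes 7 of 20 rose and 10 fell. Acta1, the skeletal alpha-actin of the fetal heart, stood at 3988, 4199.6, 3828, 4557 and 3809 CPM in the nAAC libraries, against 241, 194, 184, 164 and 324 CPM in the sham libraries. The nAAC values were close together and far above sham (log2 fold change 4.20 ± 0.52, adjusted p = 2.9e-08), while Actc1, the cardiac alpha-actin, averaged 8247 ± 549.8 CPM in nAAC and 10984 ± 722 CPM in sham (log2 fold change -0.41 ± 0.12). The fall of Actc1 was no longer called with sex as a covariate (adjusted p = 0.077). Tpm2, a tropomyosin, rose (2.47 ± 0.22), and cardiac troponin I, Tnni3, fell (-0.96 ± 0.14), as did nebulette, Nebl (-1.02 ± 0.17). The slow troponin I of fetal heart, Tnni1, was called higher at a low level (0.657 CPM in nAAC and 0.227 CPM in sham), but not with sex as a covariate (adjusted p = 0.071).

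Genes of the Z-disc, the anchor of the thin filaments and a site of stretch sensing, were mostly higher: 19 of 27 rose and 4 fell, with a median log2 fold change of 0.46. Ankrd1, a stretch-responsive titin-binding repeat protein, stood at 5356, 6008, 4449, 4901 and 6401 CPM in the nAAC libraries, against 717, 551, 618, 883 and 1253 CPM in the sham libraries (log2 fold change 2.75 ± 0.35, adjusted p = 3.2e-08). Xirp2, an actin-binding protein of the Z-disc and intercalated disc, stood at 2478, 4013, 2228, 2123 and 3633 CPM in the nAAC libraries, against 405, 402, 366, 414 and 456 CPM in the sham libraries (log2 fold change 2.82 ± 0.23, adjusted p = 3.2e-12). Neither gene overlapped between the groups, and Xirp2 was highest in nAAC replicates 2 and 5. Synpo2l (2.18 ± 0.18) and Des, the intermediate filament desmin (0.95 ± 0.12), were also higher. Ankrd23 rose by 1.76 ± 0.20, but another gene on the same strand covers 78.2% of its exonic bases. The exceptions included Fhl2, which averaged 955 ± 126 CPM in nAAC and 2292 ± 245 CPM in sham, and Tcap, the titin cap telethonin, which averaged 478 ± 121 CPM in nAAC and 1304 ± 98.5 CPM in sham. Both were lower in every nAAC library than in every sham library.

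The promoters of Ankrd1 and Acta1 are shown because both genes are known targets of TEAD transcription factors, which bind the MCAT element. The sequences are RefSeq windows of GRCm38.p6, 300 bases that run from before to just after the gene's start on its own strand, at chr19:36119795-36120094 and chr8:123894726-123895025, both on the minus strand. Capitals mark CATTCC on either strand.
Ankrd1: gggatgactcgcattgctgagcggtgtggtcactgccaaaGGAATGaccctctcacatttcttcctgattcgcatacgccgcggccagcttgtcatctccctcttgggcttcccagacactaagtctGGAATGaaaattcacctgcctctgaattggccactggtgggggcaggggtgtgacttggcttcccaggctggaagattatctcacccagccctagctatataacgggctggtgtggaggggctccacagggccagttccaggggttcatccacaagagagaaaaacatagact
Acta1: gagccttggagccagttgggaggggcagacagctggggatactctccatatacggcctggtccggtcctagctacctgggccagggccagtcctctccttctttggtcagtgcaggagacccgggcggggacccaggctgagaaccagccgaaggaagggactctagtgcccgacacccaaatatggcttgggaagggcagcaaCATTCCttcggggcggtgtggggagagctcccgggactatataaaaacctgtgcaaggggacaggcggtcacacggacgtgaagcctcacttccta
Ankrd1 holds 2 such matches, 210 and 123 bases before the start, and Acta1 holds 1, 46 bases before it. CATTCC was in 7 of the 21 Z-disc promoters with a window (33.3%) and in 14.9% of the 11992 windows of all genes tested. A match is a description of these letters and not evidence of binding.

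TEAD factors act with the co-activators YAP1, TAZ (Wwtr1) and the vestigial-like proteins. Of 18 tested genes of this list 9 rose and 0 fell, and 5 rose between the single male nAAC library and sham. Ccn2, a matricellular growth factor that is a YAP and TGF-beta target, stood at 752, 772, 445, 389 and 1144 CPM in the nAAC libraries, against 59.2, 42.3, 35.1, 53.9 and 63.1 CPM in the sham libraries (log2 fold change 3.79 ± 0.41, adjusted p = 2.0e-09). The groups did not overlap, and nAAC replicates 3 and 4 were again the lowest of the nAAC libraries. Vgll2, known as a TEAD cofactor of skeletal muscle, was near 0 in sham, at 5.91, 4.55, 1.26, 3.59 and 5.82 CPM in the nAAC libraries, against 0.0315, 0.0326, 0, 0.106 and 0 CPM in the sham libraries. These values come from 779 reads over the nAAC libraries and 5 over the sham libraries (log2 fold change 6.83 ± 0.78, adjusted p = 4.7e-09). Vgll3 (1.77 ± 0.37), Ccn1 (1.62 ± 0.26), Amot (1.12 ± 0.18) and Wwtr1 (0.57 ± 0.11) were higher, and Tead1, a TEAD gene, was not called (173 CPM in nAAC and 188 CPM in sham).

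With predicted gene models and sex-linked markers passed over, the largest rises by fold brought in genes that sham hearts hardly express. Chodl, a membrane lectin known from motor neurons, had 475 reads over the nAAC libraries and 2 over the sham libraries, a rate 194-fold higher with an exact 95% counting interval of 53.4 to 1607. By library it stood at 1.90, 1.79, 1.43, 1.82 and 6.15 CPM in the nAAC libraries, against 0, 0.0326, 0, 0 and 0.0345 CPM in the sham libraries, with nAAC replicate 5 far above the other 4. Sprr1a, a small proline-rich protein known to be induced in stressed cardiomyocytes, had 1385 and 9 reads in nAAC and in sham (log2 fold change 6.88 ± 0.93, adjusted p = 1.3e-07). Keratin 18, Krt18, and its partner keratin 8, Krt8, which are fetal cardiomyocyte and epithelial filament proteins, both rose, by 6.04 ± 0.59 and 5.41 ± 0.54 on the log2 scale. Krt18 had 4147 reads over the nAAC libraries and 51 over the sham libraries. Serpinb1c, a protease inhibitor (6.48 ± 0.66), Lrp8, the apolipoprotein E receptor 2 (6.44 ± 0.52), Tnmd, the tendon protein tenomodulin (6.39 ± 1.01), and Fgf6, a fibroblast growth factor of skeletal muscle (5.68 ± 0.79), complete those described. In the list of tubulins, keratins and other filament genes 15 of 20 rose and 1 fell. Tuba8, an alpha-tubulin, was the one that fell (-0.98 ± 0.14).

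Of the largest falls by fold, those of Aqp4 and Clcn1 are given by library. Aqp4, a water channel, stood at 0, 0.0536, 0.533, 0.324 and 0.0559 CPM in the nAAC libraries, against 9.30, 7.07, 11.1, 6.65 and 7.11 CPM in the sham libraries (log2 fold change -5.42 ± 0.54, adjusted p = 2.2e-10). Clcn1, the chloride channel that stabilises the resting potential of skeletal muscle, stood at 0.607, 0.241, 0.252, 0.235 and 0.0280 CPM in the nAAC libraries, against 12.5, 11.3, 13.1, 10.1 and 9.18 CPM in the sham libraries (log2 fold change -5.32 ± 0.64, adjusted p = 1.4e-08). Both were near 0 in every nAAC library. Acsm5, a mitochondrial medium-chain acyl-CoA synthetase, averaged 0.0800 ± 0.0753 CPM in nAAC and 4.48 ± 0.658 CPM in sham, Penk, the enkephalin precursor, 0.0632 ± 0.0579 CPM in nAAC and 3.10 ± 0.859 CPM in sham, and Efemp1, the matrix protein fibulin 3, 0.159 ± 0.0887 CPM in nAAC and 4.94 ± 2.52 CPM in sham. Their log2 fold changes were -5.72 ± 0.60, -5.49 ± 0.87 and -4.93 ± 0.64. Cyp1a1, a cytochrome P450 that the aryl hydrocarbon receptor induces (-4.45 ± 0.80), Snai3, a Snail family zinc finger (-4.36 ± 0.53), and Lrrc4b, a synaptic adhesion protein (-4.28 ± 0.38), fell as well. The non-coding RNA Uckl1os fell (-4.53 ± 0.50), and 28.6% of its exonic bases lie under another gene.

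Calcium handling genes leaned towards lower levels, with 5 of 32 higher and 15 lower, or 8 lower between the single male nAAC library and sham. Atp2a2, the SERCA2 pump that returns calcium to the sarcoplasmic reticulum, stood at 6313, 4575, 4504, 4823 and 4167 CPM in the nAAC libraries, against 13489, 11109.6, 11721, 11523 and 11318 CPM in the sham libraries. The groups were separate (log2 fold change -1.28 ± 0.14, adjusted p = 2.2e-09). Its inhibitor phospholamban, Pln, averaged 3884 ± 474 CPM in nAAC and 7128 ± 588 CPM in sham (log2 fold change -0.88 ± 0.11), with antisense and other genes over 64.7% of its exonic bases. The release channel Ryr2 (-1.08 ± 0.21), the reticulum protein Hrc (-1.47 ± 0.17) and junctophilin 2, Jph2 (-0.64 ± 0.10), were lower. Rcan1, a calcineurin target and regulator, rose (391 ± 53.2 CPM in nAAC and 74.1 ± 5.84 CPM in sham), and so did Trpc6, a receptor-operated cation channel, from few reads (0.522 CPM in nAAC and 0.0408 CPM in sham). Sln, which encodes the pump inhibitor sarcolipin, was not called (log2 fold change 1.04 ± 1.58, adjusted p = 0.61) and 1 library in each group stood far above the rest. Of 15 ventricular cardiomyocyte markers 9 fell and none rose, and 4 fell between the single male nAAC library and sham.

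Potassium channel genes, which set repolarisation, were lower in 17 of 28 cases and higher in 5. Kcnd2, a pore subunit of the transient outward current, stood at 2.68, 2.70, 6.54, 5.77 and 3.52 CPM in the nAAC libraries, against 29.3, 23.5, 23.3, 24.9 and 25.4 CPM in the sham libraries (log2 fold change -2.58 ± 0.28, adjusted p = 2.1e-09). Kcnj3, a subunit of the acetylcholine-gated channel, stood at 15.6, 5.22, 5.39, 4.77 and 2.94 CPM in the nAAC libraries, against 80.8, 79.7, 70.4, 80.2 and 76.1 CPM in the sham libraries (log2 fold change -3.51 ± 0.37, adjusted p = 1.3e-09). No library overlapped for either gene, and nAAC replicate 1 was the highest nAAC library for Kcnj3. An antisense gene covers 31.1% of the exonic bases of Kcnj3. Its partner Kcnj5 (-1.80 ± 0.19), Kcnh2, the channel of the rapid delayed rectifier (-1.76 ± 0.20), Kcnd3 (-1.63 ± 0.18), Kcnip2, the accessory subunit of the transient outward current (-1.15 ± 0.17), and Kcnn2 (-1.73 ± 0.17) fell. Kcna5 was called higher (0.68 ± 0.27), but not with sex as a covariate (adjusted p = 0.059), with no filter (0.071), or without nAAC replicates 1 or 5 or sham replicates 1, 2, 3 or 4 in turn (0.0505 to 0.147), and its log2 fold change was 0.034 in the male libraries alone.

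Sodium channel, gap junction and conduction genes fell in 14 of 26 cases and rose in 3. Scn4b, a beta subunit of the cardiac sodium channel, stood at 4.73, 1.77, 1.94, 2.15 and 2.38 CPM in the nAAC libraries, against 32.7, 36.6, 33.4, 31.1 and 33.3 CPM in the sham libraries (log2 fold change -3.68 ± 0.43, adjusted p = 8.3e-09). Its effect was -0.26 at 4 weeks (adjusted p = 0.62) and -3.36 at 8 weeks, and the effect at 6 weeks was lower than at 4 (difference -3.42 ± 0.56, adjusted p = 4.5e-05). By level, Scn4b in nAAC averaged 8.93, 2.59 and 5.45 CPM at 4, 6 and 8 weeks, and sham averaged 10.7, 33.4 and 56.0 CPM. Scn10a (-3.83 ± 0.53) and the connexin gene Gja3 (-1.80 ± 0.17) were lower.

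Adrenergic and cholinergic genes fell in 19 of 31 cases and rose in 7. Adra1a, an alpha-1 adrenoceptor of cardiomyocytes, stood at 5.23, 3.91, 6.93, 2.24 and 2.21 CPM in the nAAC libraries, against 57.4, 38.9, 38.1, 42.3 and 45.3 CPM in the sham libraries (log2 fold change -3.43 ± 0.40, adjusted p = 8.5e-09). Maob, a monoamine oxidase, averaged 5.26 ± 1.76 CPM in nAAC and 52.6 ± 3.96 CPM in sham with a log2 fold change of -3.32 ± 0.26, and neither gene overlapped. Adra1b (-1.88 ± 0.25), the phosphodiesterase Pde4d (-1.09 ± 0.13) and Rgs7 (-3.94 ± 0.53) fell. Grk5, a kinase that desensitises these receptors, rose (0.97 ± 0.13). Of 9 tested Schwann cell and neuron markers 4 rose and 3 fell, with a median log2 fold change of 0.41. Dbh, the noradrenaline-making enzyme of sympathetic nerves, fell (0.723 ± 0.404 CPM in nAAC and 4.66 ± 0.647 CPM in sham), and so did the glial marker Sox10 (-1.84 ± 0.60), while the neuronal filament gene Prph was higher at a low level (0.267 CPM in nAAC and 0.0538 CPM in sham). The calls of Sox10 and Prph were lost without nAAC replicates 4 and 5 (adjusted p = 0.12 and 0.068 by edgeR).

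Fibrosis genes rose in most lists. Of 38 genes of TGF-beta ligands, activators and targets 23 rose and 6 fell. Tgfb2, a TGF-beta ligand, averaged 51.6 ± 12.2 CPM in nAAC and 9.43 ± 1.48 CPM in sham (2.45 ± 0.26 on the log2 scale), and Ltbp2, a latent TGF-beta binding protein of the elastic fibre, 172 ± 24.9 CPM in nAAC and 4.63 ± 1.43 CPM in sham (5.21 ± 0.62). Gdf6, a BMP family ligand, rose by 4.18 ± 0.46 and Ltbp3 by 1.42 ± 0.15, whereas Ltbp1 fell (-1.06 ± 0.13). Fstl3, an activin antagonist, rose (2.82 ± 0.29), with an antisense gene over part of its exons.

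Activated fibroblast and matricellular genes rose in 23 of 29 cases and fell in 2. Postn, the matricellular protein periostin, stood at 745, 914, 1091, 825 and 1151 CPM in the nAAC libraries, against 50.2, 43.4, 47.1, 51.4 and 58.4 CPM in the sham libraries (log2 fold change 4.24 ± 0.52, adjusted p = 3.0e-08), with no overlap. Thbs4, a thrombospondin, averaged 225 ± 47.9 CPM in nAAC and 6.75 ± 1.87 CPM in sham and Cilp, a cartilage-type matrix protein of fibroblasts, 363 ± 54.7 CPM in nAAC and 18.4 ± 1.90 CPM in sham. Acta2, the smooth muscle actin that marks myofibroblasts, went the other way, at 101 ± 17.3 CPM in nAAC and 175 ± 36.9 CPM in sham (log2 fold change -0.80 ± 0.18). Resting fibroblast markers rose too, in 11 of 13 cases with 1 lower, and in 6 between the single male nAAC library and sham. Among them Pi16 (1.94 ± 0.29), Dcn, the proteoglycan decorin (0.98 ± 0.17), and Cd34 (0.88 ± 0.14) rose.

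Fibrillar collagens rose in 8 of 9 cases and none fell. Col1a1, a chain of type I collagen, stood at 317, 339, 555, 489.7 and 336 CPM in the nAAC libraries, against 108, 114, 132, 117 and 121 CPM in the sham libraries (log2 fold change 1.78 ± 0.28, adjusted p = 2.2e-06). Their summed level was 1722, 1871, 3125, 2619 and 1842 CPM in the nAAC libraries, against 672, 692, 805, 723 and 702 CPM in the sham libraries. Here nAAC replicates 3 and 4 were the highest libraries, the same pair that was lowest in Myh7 and Ccn2. Col3a1 (1.63 ± 0.30), Col5a2 (2.1 ± 0.26) and Col1a2 (1.77 ± 0.29) rose, and Col11a1 rose from few reads (2.71 CPM in nAAC and 0.0989 CPM in sham). Of the other collagen chains 20 of 28 rose and 3 fell, with Col8a1 at 243 ± 31.5 CPM in nAAC and 38.2 ± 3.88 CPM in sham, and the type VI chain gene Col6a6 at 0.460 ± 0.485 CPM in nAAC and 6.60 ± 0.692 CPM in sham.

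Elastic fibre and crosslinking genes rose in 33 of 38 cases and fell in 2. Eln, which encodes elastin, stood at 133, 139, 335, 255 and 130.4 CPM in the nAAC libraries, against 30.8, 41.3, 38.0, 30.8 and 25.9 CPM in the sham libraries (log2 fold change 2.57 ± 0.34, adjusted p = 7.9e-08). No library overlapped, and nAAC replicates 3 and 4 were the highest. At 4 weeks Eln did not pass the test (log2 fold change -0.21, adjusted p = 0.61), and the effect at 6 weeks was higher by 2.79 ± 0.46 (adjusted p = 4.0e-05). By level, Eln in nAAC averaged 115, 199 and 102 CPM at 4, 6 and 8 weeks, and sham averaged 134, 33.3 and 29.2 CPM. The proteoglycan biglycan, Bgn, averaged 1088 ± 57.7 CPM in nAAC and 233 ± 10.6 CPM in sham, the crosslinking enzyme gene Loxl3 rose by 2.58 ± 0.29, and the fibulin genes Fbln5 and Fbln2 by 1.39 ± 0.16 and 1.42 ± 0.17. Matrix proteases and their inhibitors rose in 21 of 37 cases and fell in 3. Timp1, a metalloproteinase inhibitor, averaged 12.6 ± 6.32 CPM in nAAC and 1.88 ± 0.238 CPM in sham, Mmp2, a gelatinase, rose by 1.6 ± 0.20, and the aggrecanase-type proteases Adamts4 and Adamts8 by 3.72 ± 0.54 and 3.82 ± 0.48.

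Genes of mitochondrial energy supply were lower as groups. Of 48 genes of fatty acid uptake and oxidation 36 fell and 3 rose, with a median log2 fold change of -0.93. Hadha, a subunit of the trifunctional beta-oxidation enzyme, stood at 736, 605, 574, 573 and 649 CPM in the nAAC libraries, against 1542, 1592, 1678, 1759.9 and 1711 CPM in the sham libraries (log2 fold change -1.40 ± 0.14, adjusted p = 7.7e-11). Ech1, an isomerase of the same pathway, stood at 517, 414, 376.5, 465 and 430.3 CPM in the nAAC libraries, against 1336, 1700.4, 1753, 1848 and 1507 CPM in the sham libraries (log2 fold change -1.89 ± 0.17, adjusted p = 1.1e-11). In both genes every nAAC library was below every sham library. Acaa2, a thiolase (-2.06 ± 0.18), Decr1 (-1.58 ± 0.13) and Hadhb (-1.23 ± 0.11) fell likewise. The 3 that rose were Pdk4, a kinase that switches off pyruvate oxidation (430.4 ± 156 CPM in nAAC and 79.4 ± 4.62 CPM in sham), Bdh1, a ketone body dehydrogenase (134 ± 28.6 CPM in nAAC and 30.04 ± 5.61 CPM in sham), and Fabp4, a fatty acid carrier of endothelium and fat (0.45 ± 0.16, adjusted p = 0.062 with sex as a covariate, 0.095 without nAAC replicate 4 and 0.076 without sham replicate 1). Cpt1b, the muscle carnitine palmitoyltransferase, was not called, at 1.34, 0.670, 0.842, 0.530 and 0.727 CPM in the nAAC libraries, against 0.946, 0.749, 0.926, 0.845 and 0.725 CPM in the sham libraries, from few reads, and another gene on the same strand covers 81.4% of its exonic bases.

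**Figure D2:**
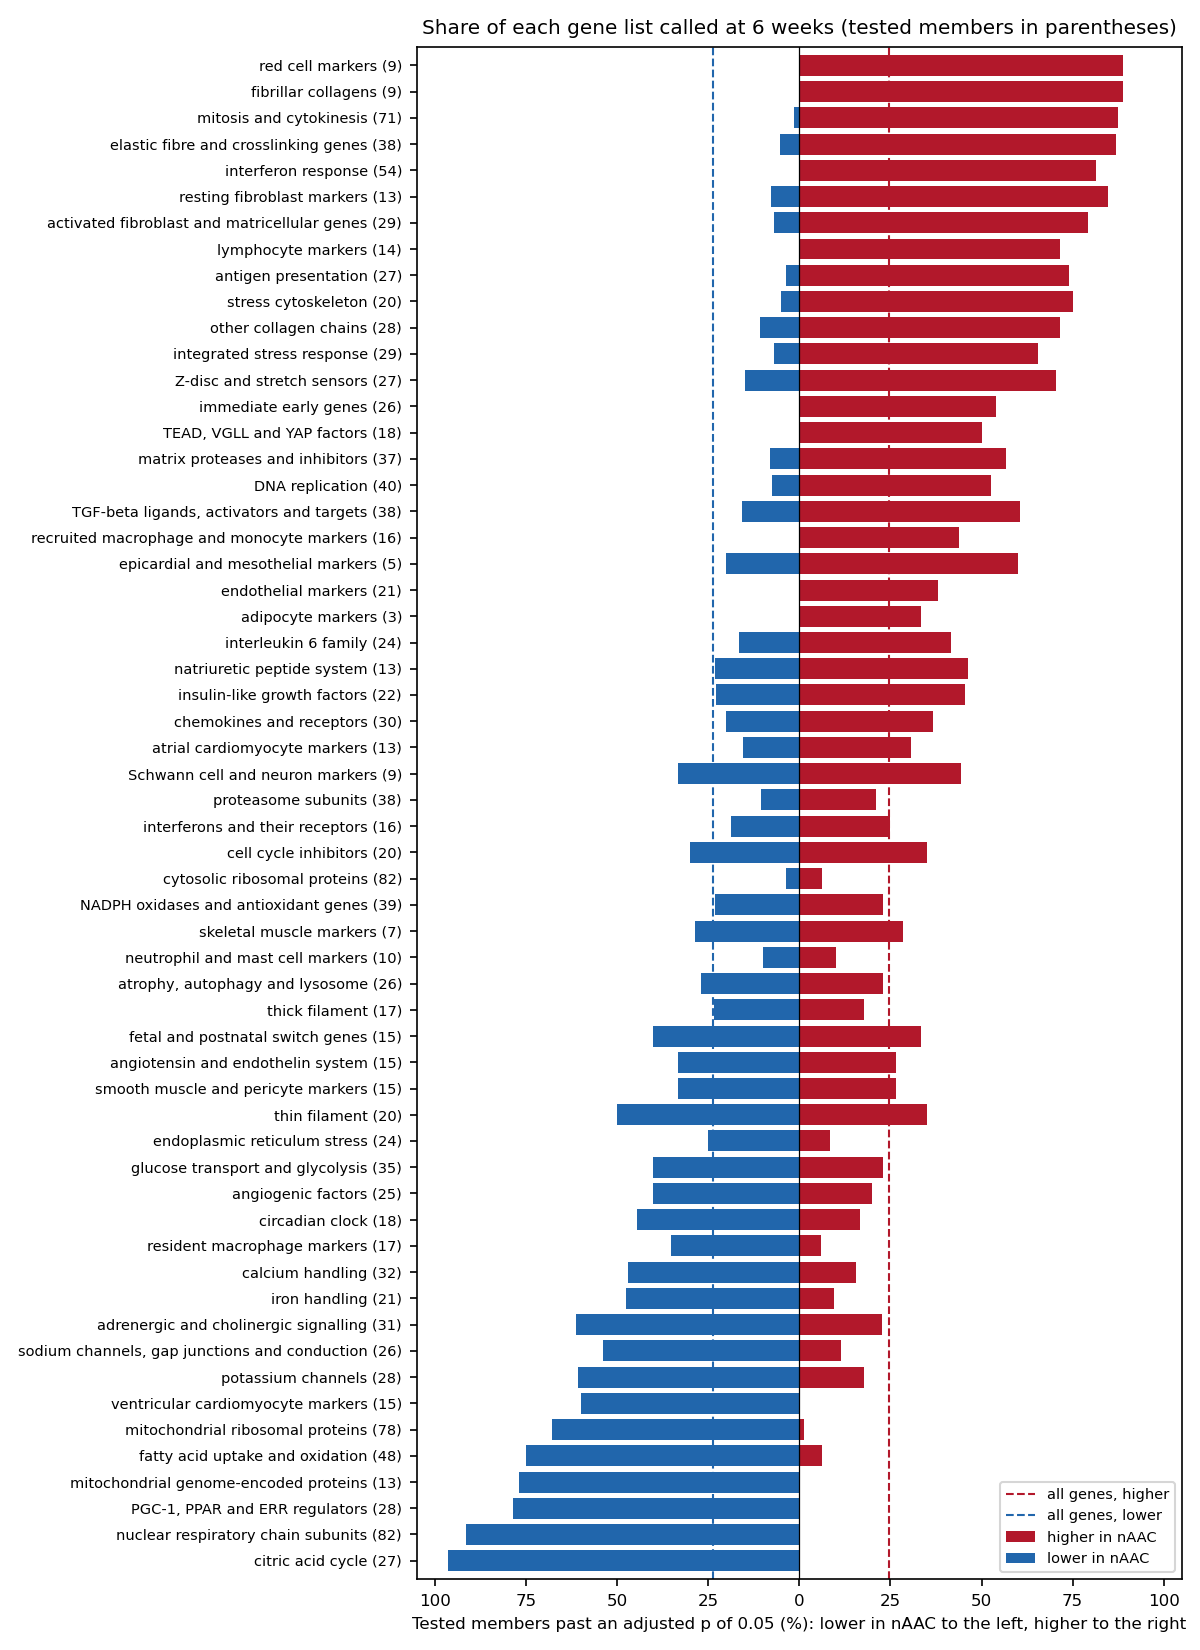
Share of tested genes in each list that were called higher or lower in nAAC hearts than in sham hearts at 6 weeks, in percent, with 1 bar a list and direction. Mitosis, interferon and matrix lists lie on the higher side, and respiratory chain, citric acid cycle and fatty acid lists on the lower side.

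Citric acid cycle genes fell in 26 of 27 cases and none rose. Citrate synthase, Cs, averaged 734 ± 44.0 CPM in nAAC and 1438 ± 73.4 CPM in sham, the ligase subunits Sucla2 and Suclg1 fell (log2 fold changes of -1.03 ± 0.09 and -0.99 ± 0.10), and so did the succinate dehydrogenase subunit gene Sdha (-1.04 ± 0.11). Nuclear-encoded respiratory chain subunits fell in 75 of 82 cases and none rose, with a median of -0.55. Their summed level was 34779, 31833, 29807, 37537 and 34003 CPM in the nAAC libraries, against 46266, 53598, 55135, 51815 and 47769.5 CPM in the sham libraries, and no libraries overlapped. The muscle form Cox7a1 averaged 261 ± 55.6 CPM in nAAC and 568 ± 71.3 CPM in sham. The 13 proteins of the mitochondrial genome fell in 10 cases and none rose, at a summed level of 170010.0, 211061, 204295, 276755 and 220461 CPM in the nAAC libraries, against 303578, 314031, 359829, 349118 and 370407 CPM in the sham libraries. Here too the groups were separate, and nAAC replicate 1 was the lowest. COX1 had a log2 fold change of -0.60 ± 0.09 and ND5 of -1.04 ± 0.16. Of the mitochondrial ribosomal proteins 53 of 78 fell and 1 rose, and 35 fell between the single male nAAC library and sham. Regulators of these genes fell in 22 of 28 cases and none rose. Ppargc1a, which encodes the co-activator PGC-1 alpha, stood at 49.6, 41.1, 43.7, 41.9 and 43.0 CPM in the nAAC libraries, against 111, 105, 96.7, 106 and 113 CPM in the sham libraries (log2 fold change -1.28 ± 0.34, adjusted p = 0.0018). Its levels hardly varied within either group at 6 weeks, and the groups were apart. The standard error draws on all 9 groups, and nAAC at 4 weeks varied more (75.1 ± 41.5 CPM). The nuclear receptor genes Ppara (-1.34 ± 0.20), Esrra (-0.88 ± 0.09), Rxrg (-1.6 ± 0.15) and Thrb (-1.18 ± 0.16) fell.

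Genes of glucose use were mixed, with 8 of 35 higher and 14 lower. The insulin-sensitive transporter gene Slc2a4 fell (174 ± 14.6 CPM in nAAC and 384 ± 20.8 CPM in sham), as did hexokinase 2, Hk2 (-0.99 ± 0.12), Slc2a12 (-3.01 ± 0.30) and the phosphorylase kinase subunit gene Phkg1 (-3.37 ± 0.27). The platelet-type phosphofructokinase gene Pfkp rose (132 ± 17.9 CPM in nAAC and 59.0 ± 3.64 CPM in sham).

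The integrated stress response, which ATF4 drives when translation is held back, was higher: 19 of 29 genes rose and 2 fell. Gdf15, a secreted stress cytokine, stood at 22.4, 21.9, 12.4, 12.8 and 42.3 CPM in the nAAC libraries, against 0.725, 0.879, 0.754, 0.211 and 0.552 CPM in the sham libraries (log2 fold change 5.14 ± 0.62, adjusted p = 1.7e-08), separate in every library. Mthfd2, a mitochondrial folate enzyme (2.51 ± 0.28), Nupr1 (2.66 ± 0.31) and the amino acid transporter gene Slc7a5 (1.54 ± 0.16) rose, and Slc7a1 fell (-1.33 ± 0.16). In the endoplasmic reticulum stress list 2 of 24 genes rose and 6 fell, which became 4 and 3 with sex as a covariate and 6 and 6 with only these 2 groups fitted. Hspa5, the chaperone BiP, averaged 343 ± 25.4 CPM in nAAC and 585 ± 53.3 CPM in sham, and both Herpud1 (-0.89 ± 0.17) and calnexin, Canx (-0.54 ± 0.07), fell. Pdia6 (-0.36 ± 0.14) lost its call without nAAC replicates 1, 2 or 5 or sham replicates 1, 3 or 4 in turn (adjusted p = 0.0541 to 0.115), and also when sex was a covariate (0.21). Among oxidase and antioxidant genes 9 of 39 rose and 9 fell. Nox4, a hydrogen peroxide-making oxidase, averaged 12.9 ± 3.42 CPM in nAAC and 1.06 ± 0.176 CPM in sham, and the mitochondrial dismutase gene Sod2 295 ± 9.40 CPM in nAAC and 558 ± 16.9 CPM in sham.

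Cell cycle genes were higher in 6-week nAAC hearts. Of 71 tested mitosis and cytokinesis genes 62 rose in nAAC and 1 fell, with a median log2 fold change of 2.41. Most were at low levels. Ube2c, a ubiquitin-conjugating enzyme of the anaphase-promoting complex, stood at 1.69, 2.14, 2.89, 2.38 and 2.38 CPM in the nAAC libraries, against 0.252, 0.195, 0.0686, 0.106 and 0.173 CPM in the sham libraries, which rests on 416 and 24 reads (log2 fold change 3.81 ± 0.51, adjusted p = 7.2e-08). Ccna2, cyclin A, stood at 3.36, 4.47, 4.24, 4.24 and 3.78 CPM in the nAAC libraries, against 0.536, 0.293, 0.171, 0.352 and 0.276 CPM in the sham libraries (log2 fold change 3.60 ± 0.63, adjusted p = 1.0e-05). Both genes were higher in every nAAC library, and the summed level of the list was 271, 333, 312, 297 and 278 CPM in the nAAC libraries, against 216, 219, 217, 229.5 and 227 CPM in the sham libraries. Ccnb1, cyclin B (1.21 CPM in nAAC and 0.0270 CPM in sham), the condensin gene Ncaph (1.83 CPM in nAAC and 0.378 CPM in sham), Birc5, which encodes survivin (3.35 ± 0.52), and the kinetochore gene Spc25 (2.77 ± 0.38) rose. DNA replication genes rose in 21 of 40 cases and fell in 3. Rrm2, a subunit of ribonucleotide reductase, stood at 2.78, 5.28, 4.10, 2.80 and 4.56 CPM in the nAAC libraries, against 1.48, 1.27, 1.03, 0.880 and 1.21 CPM in the sham libraries (log2 fold change 1.73 ± 0.29, adjusted p = 4.9e-06), with no overlap between groups. Tyms (1.30 ± 0.20), Lig1 (1.07 ± 0.18) and Mcm3 (0.94 ± 0.14) rose, while Ung, a uracil-DNA glycosylase, fell (-1.12 ± 0.13).

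The exception was Cenpf, a large kinetochore and nuclear matrix protein, at 1.67, 4.10, 2.33, 1.27 and 1.99 CPM in the nAAC libraries, against 33.0, 22.8, 17.1, 25.8 and 30.5 CPM in the sham libraries. It was lower in every nAAC library (log2 fold change -3.51 ± 0.44, adjusted p = 3.2e-08), and it was also lower at 4 weeks (-2.62) and at 8 weeks (-3.36). Inhibitors of the cell cycle were mixed, with 7 of 20 higher and 6 lower. Cdkn1a, which encodes the inhibitor p21, stood at 101, 50.2, 51.9, 61.4 and 111 CPM in the nAAC libraries, against 10.3, 12.4, 12.4, 11.1 and 8.84 CPM in the sham libraries (log2 fold change 2.77 ± 0.39, adjusted p = 3.5e-07), highest in nAAC replicates 1 and 5. Cdkn2b rose (1.63 CPM in nAAC and 0.234 CPM in sham), and Cdkn1c (-1.18 ± 0.21), Meis1 (-0.64 ± 0.12) and Meis2 (-0.57 ± 0.12), a pair of homeobox regulators of the cardiomyocyte cell cycle, fell. An antisense gene covers 30.7% of the exonic bases of Cdkn1c.

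The promoters of Ube2c and Cenpf, genes that moved in opposite directions, are set side by side. Both hold a match to the letters of the cell cycle homology region (CHR), an element known to restrict genes to late cell cycle. A match is not evidence of binding. The promoters are RefSeq windows of GRCm38.p6, Ube2c at chr2:164769679-164769978 on the plus strand and Cenpf at chr1:189688037-189688336 on the minus strand. Each is printed on its own strand with TTTGAA on either strand in capitals.
Ube2c: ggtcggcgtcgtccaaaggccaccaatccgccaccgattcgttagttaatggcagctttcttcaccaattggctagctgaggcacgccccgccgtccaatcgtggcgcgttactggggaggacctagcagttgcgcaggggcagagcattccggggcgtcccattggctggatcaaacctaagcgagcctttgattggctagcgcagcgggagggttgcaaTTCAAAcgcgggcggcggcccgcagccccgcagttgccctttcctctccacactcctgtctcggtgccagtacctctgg
Cenpf: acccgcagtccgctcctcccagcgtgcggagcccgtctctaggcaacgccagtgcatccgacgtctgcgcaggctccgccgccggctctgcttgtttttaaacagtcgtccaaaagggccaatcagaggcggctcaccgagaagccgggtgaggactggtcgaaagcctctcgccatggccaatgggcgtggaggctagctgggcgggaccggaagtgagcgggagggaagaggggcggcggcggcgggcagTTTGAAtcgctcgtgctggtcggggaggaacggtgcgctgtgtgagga
The match lies 29 bases before the start of Ube2c and just after that of Cenpf. TTTGAA was in 38 of 59 mitosis promoters with a window (64.4%), in 6 of 33 replication promoters (18.2%) and in 14.8% of all windows. CCAAT, searched on both strands, was in 45 of 59 mitosis promoters (76.3%), 20 of 33 replication promoters (60.6%) and 42.3% of all windows.

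**Figure D3:**
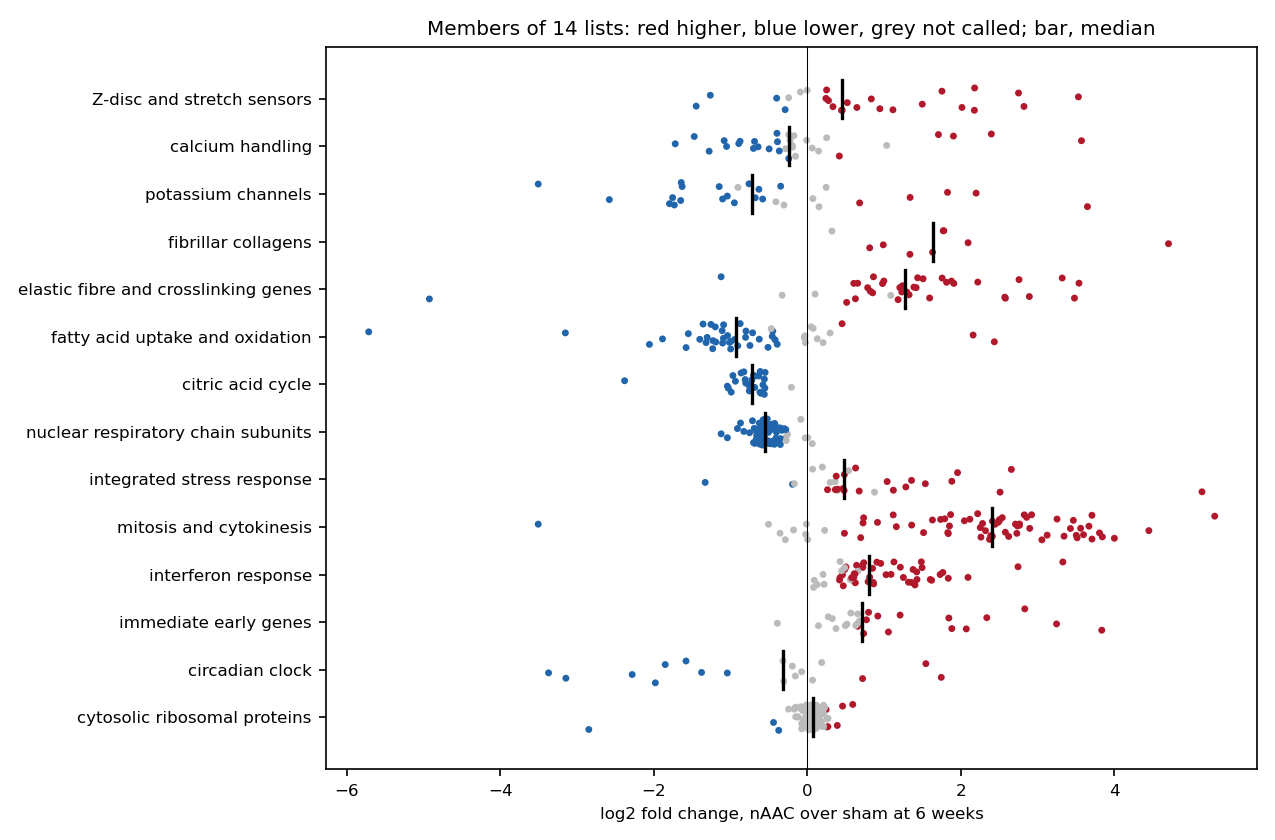
Log2 fold change of nAAC over sham at 6 weeks for each tested member of selected lists, with 1 point per gene and a bar at the list's median. Mitosis genes have a median of 2.41 and Cenpf lies alone far below 0.

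The median of the mitosis list had the opposite sign at 4 weeks, where nAAC was compared with its own sham libraries. The median log2 fold change of the mitosis list was -1.77 at 4 weeks, 2.41 at 6 and 0.75 at 8. Over all genes tested the medians were -0.03, 0.02 and 0.02. At 4 weeks 66 of the mitosis genes fell and 0 rose, while of all 15444 genes tested 3267 fell and 3016 rose. The effects at 6 and 4 weeks, tested against each other, differed for 2669 genes or 17.3% of all, with 8.96% higher at 6 weeks (1384) and 8.32% lower (1285). Such a difference can come from a change with age in nAAC, in sham or in both. In the mitosis list 65 genes had a higher effect at 6 weeks, or 63 without nAAC 4-week replicate 1, when the 4-week median was -1.51 and 62 fell at that age. For Ccnb1 the effects were -2.27, 5.31 and 1.79 at 4, 6 and 8 weeks, and the 6-week effect exceeded the 4-week one by 7.58 ± 0.93 (adjusted p = 4.6e-07). By level, Ccna2 in nAAC averaged 4.22, 4.02 and 2.60 CPM at 4, 6 and 8 weeks, and sham averaged 14.4, 0.326 and 1.21 CPM. Its sham level was thus lowest at 6 weeks.

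**Figure D4:**
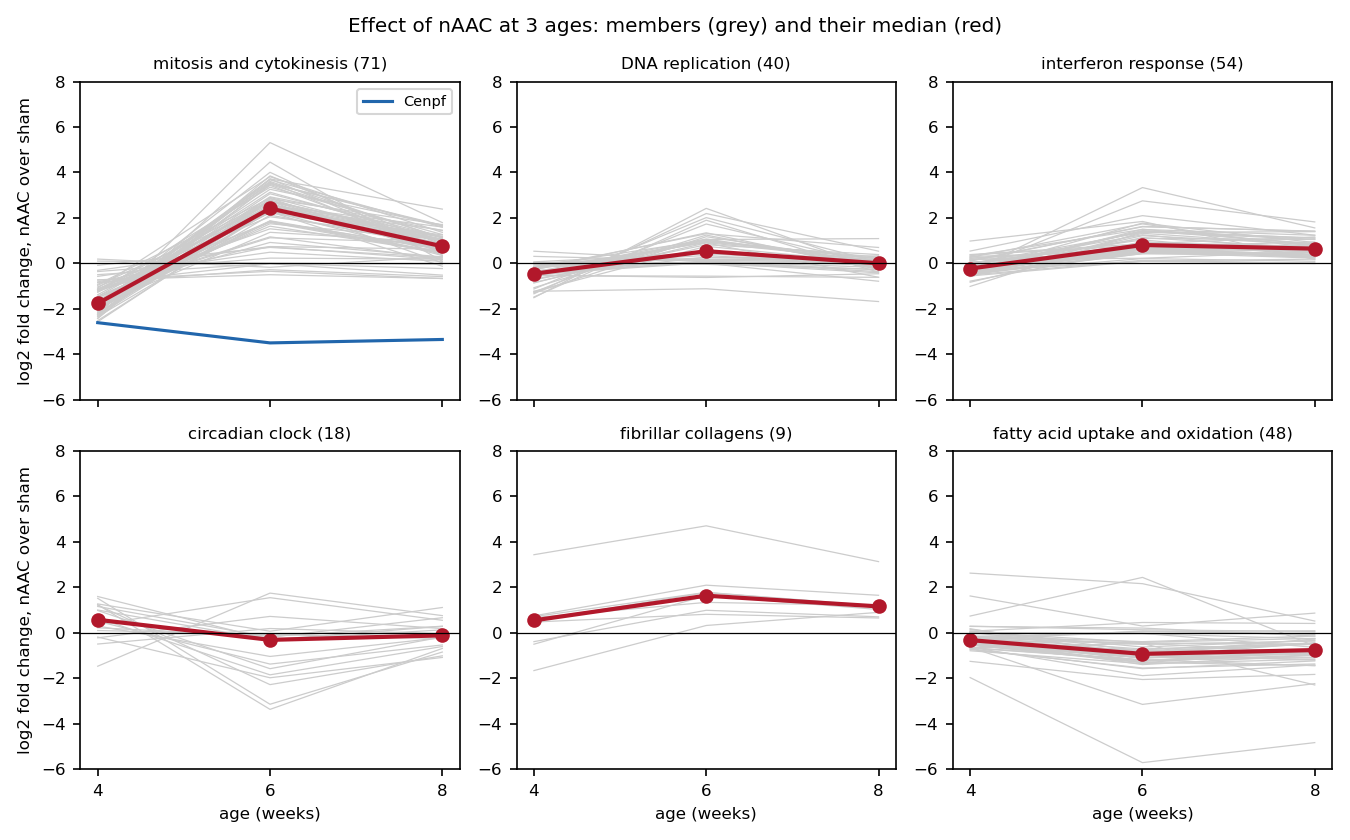
Log2 fold change of nAAC over sham at 4, 6 and 8 weeks for the tested members of selected lists. Each grey line is 1 gene, the red line is the list's median, and Cenpf is in blue. The median of the mitosis list is -1.77 at 4 weeks and 2.41 at 6 weeks.

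Interferon response genes rose in 44 of 54 cases and none fell, with a median of 0.80. Ifit3, an antiviral effector, stood at 35.4, 49.4, 26.0, 22.2 and 24.7 CPM in the nAAC libraries, against 9.11, 12.4, 8.26, 10.5 and 11.1 CPM in the sham libraries (log2 fold change 1.62 ± 0.26, adjusted p = 2.1e-06). Cxcl10, a chemokine that interferon induces, stood at 2.73, 8.57, 2.86, 2.62 and 1.96 CPM in the nAAC libraries, against 0.284, 0.521, 0.171, 0.422 and 0.449 CPM in the sham libraries (log2 fold change 3.33 ± 0.57, adjusted p = 6.0e-06). Neither gene overlapped, and nAAC replicate 2, the male library, was the highest for both. The summed level of the list was 1871, 1880.4, 1785, 1493 and 1409.6 CPM in the nAAC libraries, against 918, 1064, 931, 1166 and 1039 CPM in the sham libraries. Ifit2 (1.36 ± 0.18), Usp18, a brake on interferon signalling (1.77 ± 0.25), Oasl2 (1.43 ± 0.24) and Parp9 (0.81 ± 0.10) rose. With sex as a covariate 36 of the list rose. At 4 weeks the median was -0.23, against -0.03 over all genes tested. In the list 40 genes had a higher effect at 6 than at 4 weeks, or 41 without nAAC 4-week replicate 1. By level, Ifit3 in nAAC averaged 23.1 and 31.6 CPM at 4 and 6 weeks, and sham averaged 21.6 and 10.3 CPM. Of the 16 tested interferon receptor and sensing genes 4 rose and 3 fell. Ifngr1, a chain of the interferon gamma receptor, rose (0.77 ± 0.10), its partner Ifngr2 fell (-0.67 ± 0.10), and the adaptor gene Mavs fell (-0.71 ± 0.11).

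The Ifit3 promoter is printed because its sequence holds 2 matches to the interferon-stimulated response element, which are not evidence of binding. It is a RefSeq window of GRCm38.p6 at chr19:34583279-34583578 on the plus strand, with GAAA, any 2 bases and GAAA, on either strand, in capitals.
Ifit3: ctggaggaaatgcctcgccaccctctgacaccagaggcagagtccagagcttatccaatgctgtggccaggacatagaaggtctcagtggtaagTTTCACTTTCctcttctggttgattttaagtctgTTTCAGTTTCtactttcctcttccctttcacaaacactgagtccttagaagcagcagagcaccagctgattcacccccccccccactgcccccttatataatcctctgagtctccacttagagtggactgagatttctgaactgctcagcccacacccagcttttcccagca
The matches begin 156 and 122 bases before the start. This motif was in 22 of 40 interferon response promoters with a window (55%) and in 3.84% of all windows.

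Antigen presentation genes rose in 20 of 27 cases and fell in 1. B2m, the light chain of class I molecules, averaged 527 ± 126 CPM in nAAC and 199 ± 44.8 CPM in sham, and the class I heavy chain gene H2-K1 rose by 1.22 ± 0.20 and H2-D1 by 1.08 ± 0.17. The H2 genes are close copies of each other, and how shared reads were counted is not given in the sources used here, so their split is uncertain. The immunoproteasome subunits Psmb8 (0.73 ± 0.20), Psmb9 (0.88 ± 0.21) and Psmb10 (0.60 ± 0.11) rose, in a proteasome list where 8 of 38 rose and 4 fell.

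Markers of immune cells differed from list to list in direction. Of the resident macrophage markers 1 of 17 rose and 6 fell. Timd4, a receptor for phosphatidylserine on self-renewing cardiac macrophages, stood at 1.34, 0.562, 0.393, 0.441 and 0.699 CPM in the nAAC libraries, against 2.33, 3.75, 3.39, 2.64 and 3.11 CPM in the sham libraries (log2 fold change -2.13 ± 0.40, adjusted p = 2.6e-05), with no overlap. Lyve1 (-1.56 ± 0.33), Cd163 (-1.29 ± 0.25) and F13a1 (-1.33 ± 0.23) fell, and Folr2 (-0.77 ± 0.30) was called lower, but not with sex as a covariate (adjusted p = 0.13), with no filter (0.064), or without nAAC replicates 2, 3, 4 or 5 or sham replicates 2 or 3 in turn (0.0565 to 0.109). An antisense gene covers 63.1% of the exonic bases of Folr2. Csf1r, the receptor that all macrophages share, was not called, at 49.0 CPM in nAAC and 54.6 CPM in sham. Of the recruited macrophage and monocyte markers 7 of 16 rose and 0 fell, with 3 higher between the single male nAAC library and sham. Lgals3, galectin 3, averaged 22.1 ± 16.6 CPM in nAAC and 3.29 ± 1.19 CPM in sham, Spp1, osteopontin, 5.39 ± 1.39 CPM in nAAC and 0.593 ± 0.277 CPM in sham, and Trem2, a lipid receptor, rose by 1.01 ± 0.31. Chemokines and their receptors rose in 11 of 30 cases and fell in 6, or 3 without nAAC replicates 4 and 5. Cx3cl1, fractalkine, rose (31.2 ± 6.59 CPM in nAAC and 9.19 ± 0.625 CPM in sham), Cxcl14 fell (1.004 ± 0.423 CPM in nAAC and 16.1 ± 4.74 CPM in sham) and Ccl11, eotaxin, fell (0.0637 CPM in nAAC and 1.70 CPM in sham). In the interleukin 6 family 10 of 24 rose and 4 fell, with Tnfrsf12a, the TWEAK receptor, at 149 ± 18.4 CPM in nAAC and 29.2 ± 4.39 CPM in sham, the oncostatin M receptor gene Osmr higher (1.02 ± 0.12) and the LIF receptor gene Lifr lower (-0.84 ± 0.13).

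Lymphocyte markers rose in 10 of 14 cases and none fell, all at low levels. Cd79b, part of the B cell receptor, stood at 1.06, 1.10, 1.37, 3.53 and 2.94 CPM in the nAAC libraries, against 0.441, 0.195, 0.240, 0.528 and 0.725 CPM in the sham libraries (log2 fold change 2.22 ± 0.47, adjusted p = 1.3e-04). The groups did not overlap, and nAAC replicates 4 and 5 were the highest. Jchain, an antibody chain of plasma cells, averaged 1.79 ± 1.71 CPM in nAAC and 0.0790 ± 0.0842 CPM in sham, Ms4a1, the B cell antigen CD20, rose by 3.52 ± 0.72 and Cd8a, a cytotoxic T cell marker, by 2.28 ± 0.60. With sex as a covariate 7 of the list rose, and between the single male nAAC library and sham 2 did. The summed level was 6.02, 5.84, 13.6, 18.5 and 19 CPM in the nAAC libraries, against 2.05, 3.13, 2.16, 2.15 and 2.69 CPM in the sham libraries. Red cell transcripts moved with it, at a summed level of 446, 278, 575, 1528 and 3379.5 CPM in the nAAC libraries, against 147, 305, 550.2, 119 and 158 CPM in the sham libraries. Of the 9 red cell markers 8 were called higher, none separated the groups, and none stayed called with sex as a covariate, without nAAC replicate 5 or without nAAC replicates 4 and 5. The alpha globin gene Hba-a1 stood at 99.2, 58.7, 125, 356 and 946 CPM in the nAAC libraries, against 32.7, 63.9, 116, 20.9 and 27.2 CPM in the sham libraries, and the globin genes are near-identical copies. The part of blood left in the tissue in the lymphocyte result was not tested. Of 10 neutrophil and mast cell markers 1 rose (Csf3r, 2.52 CPM in nAAC and 0.990 CPM in sham) and 1 fell (Kit, 6.03 CPM in nAAC and 9.45 CPM in sham), and both calls were lost without nAAC replicate 5, among other alternatives.

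Endothelial markers rose in 8 of 21 cases and none fell, with 5 higher between the single male nAAC library and sham. Cldn5, a tight junction protein of endothelium, averaged 44.6 ± 7.34 CPM in nAAC and 16 ± 2.14 CPM in sham, Sox17 rose by 0.82 ± 0.15 and Esam by 0.49 ± 0.10. The pan-endothelial genes Cdh5 (253 CPM in nAAC and 245 CPM in sham) and Kdr (268 CPM in nAAC and 262 CPM in sham) were not called. Angiogenic factors fell in 10 of 25 cases and rose in 5. Angpt1, the ligand that stabilises vessels through TIE2, averaged 5.46 ± 1.41 CPM in nAAC and 35.4 ± 6.77 CPM in sham with no overlap, Fgf16, a fibroblast growth factor of cardiomyocytes, fell (-2.16 ± 0.24), and Vegfc, a lymphatic growth factor, rose (0.87 ± 0.18). Vegfa was not called (262 CPM in nAAC and 238 CPM in sham). Smooth muscle and pericyte markers rose in 4 of 15 cases and fell in 5. Among the markers of other cells that the tissue could hold, 5 mesothelial and 7 adipocyte markers had too few reads to test. Of 5 epicardial and mesothelial markers tested, 3 rose (Tbx18, Aldh1a2 and Wt1) and 1 fell. The calls of these 3 genes did not hold between the single male nAAC library and sham, where their log2 fold changes were 0.38, 0.86 and 0.77. Of 3 adipocyte markers tested, 1 rose (Fabp4) and 0 fell. In the atrial list 4 of 13 rose, among them Nppa and Dkk3 (2.91 ± 0.59), and 2 fell, with Myl7 not called.

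In the angiotensin and endothelin system 4 of 15 genes rose and 5 fell. Edn3, an endothelin ligand best known from neural crest development, stood at 17.0, 19, 10.5, 21.3 and 13.1 CPM in the nAAC libraries, against 0.473, 0.619, 0.309, 0.317 and 0.552 CPM in the sham libraries (log2 fold change 5.14 ± 0.44, adjusted p = 1.1e-11), separate in every library. Ace, angiotensin-converting enzyme, averaged 199 ± 33.2 CPM in nAAC and 60.7 ± 5.58 CPM in sham, and the endothelin receptor gene Ednrb rose by 1.10 ± 0.20. The angiotensin receptor gene Agtr1a (-1.68 ± 0.22), the mineralocorticoid receptor gene Nr3c2 (-1.54 ± 0.19) and Mas1 (-3.46 ± 0.51) fell.

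Immediate early genes, which cells switch on within minutes of a stimulus, rose in 14 of 26 cases and none fell. Egr2, a zinc finger factor of this class, stood at 14.7, 18.1, 5.67, 6.39 and 14.9 CPM in the nAAC libraries, against 0.820, 0.847, 0.754, 1.09 and 0.656 CPM in the sham libraries (log2 fold change 3.84 ± 0.74, adjusted p = 4.6e-05). The nAAC libraries split into replicates 3 and 4, which were lower, and replicates 1, 2 and 5. Egr3 (2.84 ± 0.49), Myc (2.07 ± 0.29), Dusp4 (2.34 ± 0.37) and Ier5 (1.21 ± 0.23) rose. The summed level was 1286, 1381, 819.7, 689.8 and 1369.7 CPM in the nAAC libraries, against 625, 689, 594, 766 and 822 CPM in the sham libraries, so nAAC replicates 3 and 4 lay within the range of sham.

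Circadian clock genes differed between the groups at 6 weeks, with 3 of 18 higher and 8 lower. Dbp, a clock output factor, stood at 21.4, 15, 10.2, 7.89 and 18.7 CPM in the nAAC libraries, against 155, 116, 119, 129 and 129.7 CPM in the sham libraries (log2 fold change -3.15 ± 0.52, adjusted p = 4.7e-06). The groups were far apart, and Nr1d1, which encodes REV-ERB alpha, averaged 26.4 ± 10.8 CPM in nAAC and 128 ± 15.8 CPM in sham. Ciart (-3.37 ± 0.45), Nr1d2 (-1.85 ± 0.28), Hlf (-1.98 ± 0.31), Tef (-1.38 ± 0.22) and Cry2 (-1.04 ± 0.12) fell, and Nfil3, a repressor in antiphase to Dbp, rose (1.55 ± 0.26). At 4 weeks Dbp had the opposite sign (1.52, adjusted p = 0.014, or 1.11 and 0.071 without nAAC 4-week replicate 1), and at 8 weeks it was not called (-0.85, adjusted p = 0.15). The labels do not give the hour of sampling. CACGTG, the E-box, searched on both strands, was in 5 of 15 clock promoters with a window (33.3%) and in 11.3% of all windows.

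Growth factor, imprinted and translation genes held several single-gene changes. In the insulin-like growth factor list 10 of 22 rose and 5 fell. Igf1 averaged 41.9 ± 7.19 CPM in nAAC and 11.8 ± 1.53 CPM in sham and the binding protein gene Igfbp7 616 ± 96.2 CPM in nAAC and 152 ± 7.82 CPM in sham. Igf2, a fetal growth factor, stood at 10.4, 12.3, 17.5, 12.6 and 7.66 CPM in the nAAC libraries, against 59.7, 47.7, 58.6, 43.0 and 43.9 CPM in the sham libraries (log2 fold change -2.06 ± 0.23, adjusted p = 3.3e-09), although other genes cover 64.5% of its exonic bases, and its imprinted neighbour H19 fell with it (6.35 ± 3.13 CPM in nAAC and 31.6 ± 5.66 CPM in sham). In the list of genes that switch between fetal and postnatal heart, 5 of 15 rose and 6 fell. Of 82 cytosolic ribosomal proteins 5 rose and 3 fell, and 3 rose without nAAC replicate 5 or without sham replicate 1. Rpl3l, the striated muscle form of ribosomal protein L3, stood at 40.9, 21.2, 31.4, 36.4 and 15.2 CPM in the nAAC libraries, against 202, 226, 226, 203 and 187 CPM in the sham libraries (log2 fold change -2.85 ± 0.31, adjusted p = 2.3e-09), while the general form Rpl3 rose (411 ± 50.5 CPM in nAAC and 273 ± 27.2 CPM in sham). Iron handling genes fell in 10 of 21 cases and rose in 2, with ferritin heavy chain, Fth1, at 971 ± 86.4 CPM in nAAC and 1497 ± 174 CPM in sham. Genes of atrophy, autophagy and the lysosome were mixed (6 of 26 higher and 7 lower), with the autophagy receptor gene Sqstm1 higher (0.61 ± 0.11) and Map1lc3a lower (-0.75 ± 0.12).

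**Figure D5:**
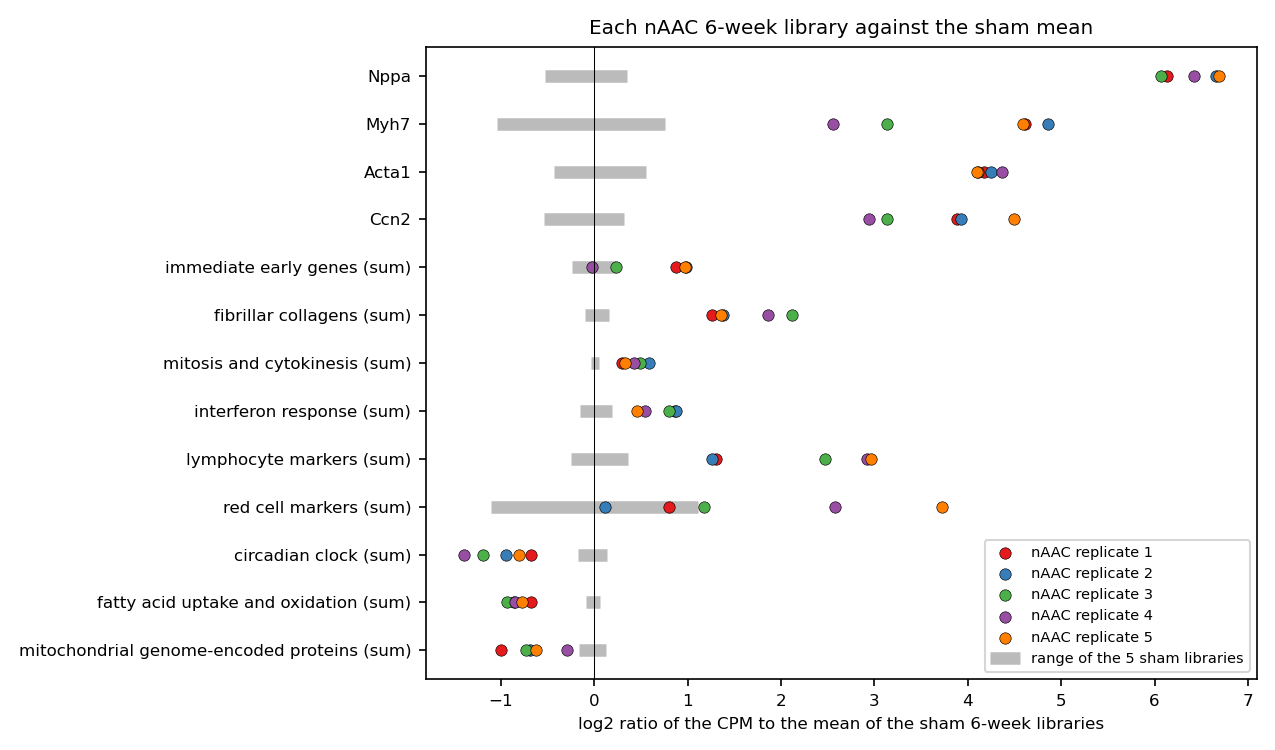
Log2 ratio of the CPM in each of the 5 nAAC libraries at 6 weeks to the mean of the 5 sham libraries. Rows are Nppa, Myh7, Acta1, Ccn2 and the summed levels of gene lists, and a grey bar gives the range of the sham libraries. Replicates 3 and 4 of nAAC are highest in fibrillar collagens and lowest in immediate early genes among the nAAC libraries, and replicates 4 and 5 are highest in red cell and lymphocyte markers.

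Few genes differed between the effects at 6 and 8 weeks, which share no libraries. By edgeR 25 genes passed, or 0.162% of those tested, 16 of them higher and 9 lower at 6 weeks. DESeq2 called 77 and a fit of these 4 groups alone called 204, leaving out 1 library gave 7 to 30 (7 without sham 8-week replicate 4), and a p that misses the threshold does not show equal effects. Bdh1 had effects of 2.63, 2.16 and 0.52 at 4, 6 and 8 weeks, and the 6-week effect exceeded that at 8 weeks by 1.65 ± 0.26 (adjusted p = 0.0018). Tnc, the matrix protein tenascin C, stood at 2.53, 3.37, 10.2, 6.56 and 2.18 CPM in the nAAC libraries, against 1.42, 1.82, 1.54, 2.25 and 1.31 CPM in the sham libraries. The groups overlapped and nAAC replicates 3 and 4 were the highest, with effects of -0.49, 1.57 and -1.15 at the 3 ages and a difference of 2.72 ± 0.54 between 6 and 8 weeks (adjusted p = 0.018). By level, Tnc in nAAC averaged 2.37, 4.97 and 2.64 CPM at 4, 6 and 8 weeks, and sham averaged 3.33, 1.67 and 5.85 CPM. The replication helicase genes Mcm5 and Mcm6 (differences 1.51 and 0.79), Rrm2 (1.78) and the deoxyribose phosphate aldolase gene Dera (0.98) were higher at 6 than at 8 weeks, and the clock gene Cry2 (-0.83), Dhdh (-0.92) and Smpdl3a (-0.53) were lower.

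Against 4 weeks, the effects of Nppa, Nppb, Ankrd1 and Xirp2 were not called different, with Nppa at log2 fold changes of 6.81, 6.42 and 5.05 at 4, 6 and 8 weeks and a difference between 6 and 4 weeks of -0.39 ± 0.61. Myh7 had a lower effect at 6 weeks than at 4 (difference -1.94 ± 0.69, adjusted p = 0.047), which was no longer called without nAAC 4-week replicate 1 (-1.84, adjusted p = 0.069). By level, Myh7 in nAAC averaged 4513 and 4466 CPM at 4 and 6 weeks, and sham averaged 63.9 and 243 CPM. Tcap turned round between these ages, with a log2 fold change of -1.45 at 6 weeks, against 0.92 at 4 (difference -2.37 ± 0.28, adjusted p = 3.1e-07). Col3a1 (2.14) and Ifit3 (1.53) had higher effects at 6 weeks, and Pln (-0.46) a lower one, which was not called without that library (-0.39, adjusted p = 0.083). The genes with the smallest p for the difference between 6 and 4 weeks were taken from those called at 6 weeks. Of these Incenp, a chromosomal passenger protein (2.34), Tacc3, a spindle protein (2.67), and Lmnb1, a nuclear lamin (2.1), were higher. So were Trim59 (3.45) and the basement membrane gene Nid2 (1.34). Ppl, the desmosomal protein periplakin (-4.36), and Gstm1, a glutathione transferase (-1.33), were lower.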

How the data were processed

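Per the labels' protocols, left ventricular RNA came from a Trizol extraction and libraries from the VAHTS Universal V6 kit. Tools listed in the submitters' processing notes are HTSeq 0.11.2, HISAT2 2.1.0 and fastp 0.20.1, and the build is mm10 (GRCm38). The authors deposited a raw read count for each gene, and the whole numbers and unequal library totals show no scaling. The annotation, the strand setting and the handling of shared reads are not given in the sources used here, so close copies and overlapping genes are uncertain. Exon overlap was measured with GENCODE M21, and it is not given for every gene that has some.

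The counts of all 45 libraries in 9 groups were fitted with edgeR 4.0.16 in R 4.3.3 (TMM, filterByExpr with a minimum count of 10 and a minimum total of 15, robust quasi-likelihood), which tested 15444 genes. A test contrasted nAAC with sham at 6 weeks, and 2 more set this effect against those at 4 and 8 weeks. The Benjamini-Hochberg adjustment ran over all genes tested, with a threshold of 0.05, and every adjusted p printed is from edgeR's quasi-likelihood test unless another tool is named. The procedure was tested on simulated data. Library totals set the precision, and intervals on reads cover counting error only. The closest 2 of the 10 libraries had a correlation of 0.989, so no library held the same values as another. Deviations from the group mean had correlations of -0.0596 to 0.0763 between nAAC and sham libraries of the same replicate number, so no block was used. A weak shared effect would not show in this check. Libraries were sexed by Xist against 4 genes of the Y chromosome. Of the genes tested 15110 were matched by symbol to RefSeq.

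The gene lists, and the comparison itself, were chosen with earlier results of these data known. Lists are described by counts and medians, with no test of their own, and a gene in several lists counts in each. Genes are named by a rule: a cardiac panel, the 10 largest rises and 10 largest falls among called genes with separate groups and a mean of at least 2 CPM, the smallest p-values for a difference between ages, and up to 6 called genes a list by adjusted p. The rankings by fold and by age difference passed over predicted gene models and sex-linked markers such as Xist. The ranking by age difference kept only genes called at 6 weeks with a mean of at least 2 CPM in the higher group. A further 14 genes (Ccna2, Cdh5, Csf1r, Eln, Hadha, Kdr, Myl2, Myl7, Nfil3, Nr1d1, Pdk4, Tead1, Tnni1 and Vegfa) were chosen after their values were seen. Some genes that the rule named are not reported here. Alternatives were DESeq2 1.42.0, RLE normalization, nuclear genes alone, no filter, the compared groups alone, sex as a covariate, male libraries alone, a replicate block, a threshold of 0.01, each library left out in turn and, added after the data were seen, nAAC replicates 4 and 5 left out together.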

Additional observations from a re-analysis of the deposited data

Results flagged for a closer look

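In 120 groups of 5 libraries, 9 held a library whose gap to the nearest of the others, as a share of the group's whole range, passed 0.71 (chance flags about 1 group in 20). In nAAC the highest library stood apart for Chodl (0.902), Kcnj3 (0.806), Scn4b (0.794), Cxcl10 (0.863), Sln (0.977) and Timp1 (0.789). In sham it did for Myh6 (0.713), Atp2a2 (0.743) and Sln (0.797).

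The effect of nAAC at 6 weeks differed from that at 4 weeks for 2669 genes and from that at 8 weeks for 25, by the test of the difference. In log2 units, 6 minus 4 weeks, it was higher for Ccnb1 (7.577), Trim59 (3.454), Tacc3 (2.672), Incenp (2.339), Col3a1 (2.135), Lmnb1 (2.095), Tnc (2.059), Mcm5 (1.746), Ifit3 (1.529), Nid2 (1.336), Mcm6 (1.171) and Dera (0.7188). It was lower for Ppl (-4.358), Tcap (-2.372), Myh7 (-1.938), Cry2 (-1.34), Gstm1 (-1.329), Dhdh (-0.5957), Pln (-0.4589) and Smpdl3a (-0.3143). For 6 minus 8 weeks it was higher for Tnc (2.72), Bdh1 (1.645), Mcm5 (1.514), Dera (0.9796) and Mcm6 (0.7883), and lower for Dhdh (-0.9215), Cry2 (-0.8289) and Smpdl3a (-0.5346). The call of Lmnb1 at 6 weeks itself was lost without nAAC replicates 2, 3 or 4 or sham replicates 2, 3 or 4 in turn (adjusted p = 0.0527 to 0.0979 by edgeR), with sex as a covariate (0.062), with no filter (0.066) and in the male libraries alone (0.104).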

How the results depend on the processing

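The count of genes that differed between nAAC and sham at 6 weeks stayed within 1.5 times of 7453 under every alternative run but one. It was 4500 (2273 higher and 2227 lower) between the male libraries alone, which leave 1 nAAC library against 5 sham libraries, so the lone library is assumed to vary like the other groups. It was 7637 with DESeq2, 7449 with RLE, 7439 with nuclear genes alone, 7143 with no filter, 7494 with only the groups compared, 6976 with sex as a covariate, 5661 at 0.01, 6948 to 7194 with 1 library left out and 6418 without nAAC replicates 4 and 5. With a replicate block it was 7419. The block, whose numbers are not known to pair libraries, moved the 6 against 4 week count from 2669 to 2621 and the 6 against 8 week count from 25 to 16. The 6 against 4 week count was 2168 to 3086 over all alternatives, and 2831 without nAAC 4-week replicate 1, whose labels conflict. The 6 against 8 week count was 77 with DESeq2, 14 with no filter, 204 with only the groups compared and 7 to 30 with 1 library left out, and the cause was not tested.

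Of 362 named genes, 356 were tested with nuclear genes alone and 357 with the compared groups alone. None of those called and tested lost its call or changed sign under DESeq2, RLE, these 2 settings or the block. Those that lost it numbered 5 with no filter, 19 with sex as a covariate, 2 to 13 with 1 library left out (13 without nAAC replicate 5, 6 of them red cell genes) and 21 without nAAC replicates 4 and 5. More lost it in the male libraries alone, which hold 1 nAAC library. Of the called genes only Hbb-bt changed sign, to -0.0036 in the male libraries alone. Among those not called, Sln ran from -3.98 to 2.97 and Cpt1b from -0.26 to 0.099 with 1 library left out. Sex and operation cannot be fully told apart with 1 male nAAC library, and reads of a few genes per library limit what can be said of genes under 1 CPM.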
